A study of Mus musculus with 20 samples.

Results

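The cells described here are Ccr2+ Arg1-low monocytes of the tumor, 1567 of the 10885 cells in 4 scRNA-seq libraries of FACS-purified tumor-associated macrophages (TAM), and 14.4% of them. They were chosen by a gate on 11 genes in corrected counts. A cell had to have fewer than 300 counts of S100a8 and S100a9 together, at least 1 of Csf1r, fewer than 30 of C1qa, C1qb and C1qc together, fewer than 20 of the MHC class II genes H2-Aa, H2-Ab1 and H2-Eb1 together, fewer than 5 of Arg1 and at least 1 of Ccr2. The comparison cells were the remaining 2244 of the 3811 cells that met the S100a8/S100a9 and Csf1r limits. They split, without overlap, into 1105 MHC-II-high cells, 514 C1q-high cells, 353 cells that passed every limit of the gate except for having no Ccr2 count (Ccr2-negative cells) and 272 Arg1-high cells (5 or more Arg1 counts with C1q and MHC class II under their limits).

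The study asked whether cancer makes macrophages from B-cell precursors, and its scRNA-seq part holds macrophages cultured from bone marrow B cells or monocytes and the TAM used here, 31683 cells in all. The TAM came from 4 mice with 4T1.2 cells, a murine mammary carcinoma line, growing as tumors in BALB/c mice. The mice were young females 8 to 12 weeks old and all 4 libraries were of this 1 kind, so no treatment or genotype was compared. The libraries are numbered 2 to 5 in the data, and those numbers could not be tied to the replicate numbers of the samples or to a given mouse.

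Monocytes are blood leukocytes made in the bone marrow. Classical monocytes of the mouse carry Ly6C and the chemokine receptor CCR2, leave the marrow and enter inflamed tissue and tumors along gradients of the CCR2 ligand CCL2, and there can become macrophages or antigen-presenting cells. Patrolling monocytes carry little Ly6C, have more CX3CR1 and depend on NR4A1. Arginase 1, C1q and MHC class II are typical of cells further along: arginase 1 of hypoxic or alternatively activated macrophages, C1q of tissue macrophages and MHC class II of antigen-presenting cells.

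All values are corrected counts per cell, recovered from the deposited values, and a level is the mean over the cells of a group in 1 library. The median cell held 7651 to 8266 corrected counts per library, and the correction evens out depth, so the number of detected genes tells more. The Ccr2+ Arg1-low cells had a median of 2582 to 2654.5 detected genes, the other Csf1r+ cells 2440.5 to 2486, and the Ccr2-negative cells 1588.5 to 2212.5. Mitochondrial genes took 2.81% to 3.69% of the counts of the Ccr2+ Arg1-low cells and 2.94% to 3.08% of those of the other cells. Of the cell barcodes, 13 occurred in more than 1 library, and 2 of the Ccr2+ Arg1-low cells had such a barcode. No doublet caller was run, since it needs the raw counts. With 1 value per library and group, p-values measure how large a difference was relative to its spread over 4 libraries, moderated over all genes. They are not evidence that the cells form a type of their own, because the groups were cut on 11 genes of the same cells and other genes vary with those. Some values are also given without cells carrying markers of other types. These are cells with 2 or more counts over 37 marker genes of B, T and NK cells, tumor epithelium, fibroblasts and endothelium, and platelets, or with 30 or more counts of S100a8 and S100a9, which are also genes of the gate. None of the 8 listed markers of mast cells and basophils was among the genes analysed here, so such cells were not looked for. The limits left out 443 of the 1567 Ccr2+ Arg1-low cells, 266 of them by the S100a8 and S100a9 limit alone, and 1085 of the 2244 others, 457 of them by that limit alone. Of the C1q-high cells 340 of 514 were left out. In the other cells the marker Pecam1 was at 0.218 to 0.449, and its fibroblast and endothelium list summed to 0.316 to 0.594. Ighm was at 0.255 to 0.374 there, and its B-cell list summed to 0.442 to 0.862. Whether the cells left out were of other types was not tested.

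The Ccr2+ Arg1-low cells were present in every library and were the largest of the 5 populations in each. They numbered 550, 287, 325 and 405 cells in libraries 2 to 5. They made up 35.7% of the Csf1r+ S100a8/9-low cells in library 2 (95% exact binomial interval 33.3% to 38.1%), 49.4% in library 3 (45.3% to 53.5%), 38.9% in library 4 (35.6% to 42.3%) and 47.5% in library 5 (44.1% to 50.9%). The intervals cover counting error only. As a share of all cells of a library the order differed, with 17.3% in library 2 and 12.4% to 13.6% in the others. The cells with 300 or more S100a8 and S100a9 counts numbered 1110 of 3180, 1285 of 2318, 1086 of 2387 and 1549 of 3000 in libraries 2 to 5.

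**Figure D1:**
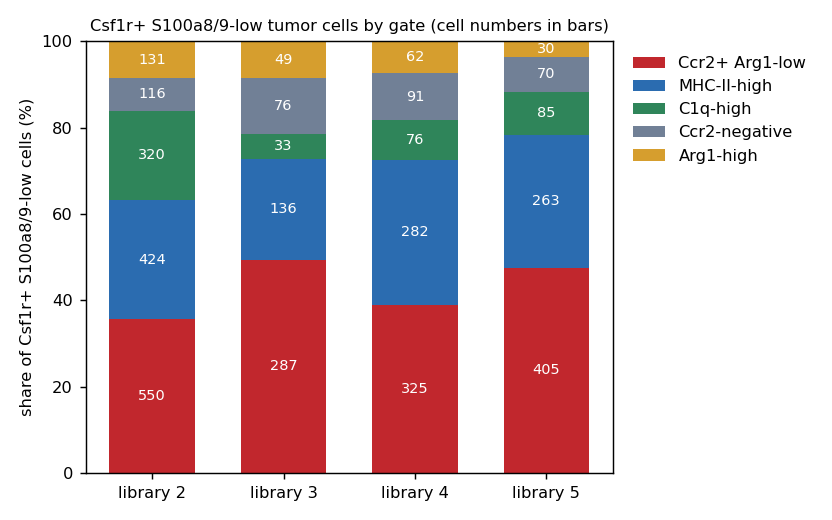
Share (%) of the Csf1r+ S100a8/9-low cells of each tumor library in 5 gates that do not overlap, with the number of cells written in each bar segment. The Ccr2+ Arg1-low segment runs from 35.7% in library 2 to 49.4% in library 3, and the C1q-high segment is widest in library 2 with 320 cells.

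The genes of the gate are described without a test, since they chose the cells. Ccr2, the receptor for CCL2 (chromosome 9, 124101950 to 124113557, GRCm38), had a level of 5.747, 7.997, 7.637 and 7.894 in libraries 2 to 5, with up to 36 counts in a cell and a median of 5 to 7. The MHC-II-high cells, in which the rule set no limit on Ccr2, had 4.59 to 6.17, the Arg1-high cells 2.75 to 3.60 and the C1q-high cells 1.59 to 3. Csf1r, the receptor for M-CSF, was at 2.42 to 2.64. Arg1, which turns arginine into ornithine, had no count in 91.5% to 96.0% of the Ccr2+ Arg1-low cells, and C1q had none in 77.6% to 87.8%. S100a8 and S100a9 together had a median of 2 to 4 counts, although single cells reached 298.

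Cells just inside and just outside each limit are given as a description. The 153 cells with exactly 1 Ccr2 count averaged 2.80 of Vcan and 0.830 of Ly6c2, and the 353 cells with none averaged 0.550 and 0.181. The 19 cells with 3 or 4 Arg1 counts averaged 2.90 of Vcan, and the 13 cells with 5 or 6 had 2.39. The 49 cells with 15 to 19 MHC class II counts averaged 2.47 of Vcan, and the 62 cells with 20 to 24 had 3.403. The 7 cells with 20 to 29 C1q counts had 0.714 of Vcan, and the 9 with 30 to 39 had 2.22. The 62 cells with 200 or more S100a8 and S100a9 counts but under 300 had 4.50 of Vcan, and the 28 cells less than 100 counts beyond the limit had 3.32. Csf1r of 1 (474 cells, Vcan 4.41) bordered on 341 cells that met every other limit but had no Csf1r count, with Vcan at 3.56 and Ccr2 at 4.89. Vcan and Ly6c2 were thus lower beyond the Ccr2 limit, while Hp differed less there, at 3.092 inside and 2.632 outside. The cells with no Ccr2 count also had fewer detected genes and carried markers of osteoclasts and of neutrophils, as described below. Whether the Ccr2 limit marks a boundary between kinds of cells was not tested. At the other limits, Vcan was higher outside for MHC class II and C1q and lower for Arg1, S100 and Csf1r. Ly6c2 was higher outside for Arg1 and MHC class II and lower for C1q, S100 and Csf1r.

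Of the 4 genes given as markers of these cells, Ccr2 is part of the gate and was not tested. Of the other 3, S100a4, a calcium-binding protein of migrating cells (chromosome 3, 90603771 to 90606045), was higher than in all other Csf1r+ cells by the test, and Tmem176b and Clec4a3 did not pass. S100a4 was at 9.84, 11.6, 11.9 and 10.6 in libraries 2 to 5, against 4.791, 7.554, 6.603 and 6.364 in the other cells. The groups did not overlap, and the log2 difference was 0.80 ± 0.08 (SE, adjusted p = 7.39e-05). Over all genes tested outside the gate, 2003 of 6573 did not overlap in this comparison, and 2790 of 6744 did not against the C1q-high cells. Lack of overlap, here and below, was thus common and does not set a gene apart. The Ccr2-negative cells, however, had 12.1, 6.71, 10.5 and 9.47 of S100a4, overlapping the Ccr2+ Arg1-low cells (log2 difference 0.21 ± 0.18, adjusted p = 0.363).

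Tmem176b, a 4-transmembrane protein of immature myeloid cells (chromosome 6, 48833818 to 48841496, minus strand), was at 2.52, 1.89, 2.34 and 2.79 in the Ccr2+ Arg1-low cells and at 1.20, 2.29, 1.51 and 2.35 in the others. It was lower than in the other cells in library 3, the groups overlapped, and the log2 difference of 0.40 ± 0.16 did not pass (adjusted p = 0.0820). The MHC-II-high cells of library 3 had the highest value, 4.35, and the C1q-high cells had 1.02 to 1.73, with no overlap (log2 difference 0.74 ± 0.17, adjusted p = 0.00474). The Arg1-high cells had 0.0667 to 0.500 and the Ccr2-negative cells 0.171 to 0.414. Against these the log2 differences were 2.85 ± 0.27 (adjusted p = 0.000103) and 2.75 ± 0.17 (adjusted p = 1.06e-07).

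Clec4a3, a C-type lectin receptor (chromosome 6, 122952515 to 122969875), was at 1.64, 1.87, 1.90 and 1.85 in the Ccr2+ Arg1-low cells. The C1q-high cells had more, 2.05 to 2.47, the MHC-II-high cells 1.88 to 2.21, and the Arg1-high cells 0.323 to 0.534. The log2 difference from all other cells was 0.20 ± 0.08 (adjusted p = 0.0738), from the Arg1-high cells 1.89 ± 0.15 (adjusted p = 3.96e-05) and from the C1q-high cells -0.25 ± 0.12 (adjusted p = 0.102). Both Tmem176b and Clec4a3 thus passed the test against the Arg1-high and the Ccr2-negative cells (Clec4a3 1.82 ± 0.17 against the latter), and Tmem176b also against the C1q-high cells, while the MHC-II-high cells, against which no test was run, had more Clec4a3 in every library and more Tmem176b in libraries 3 and 5.

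**Figure D2:**
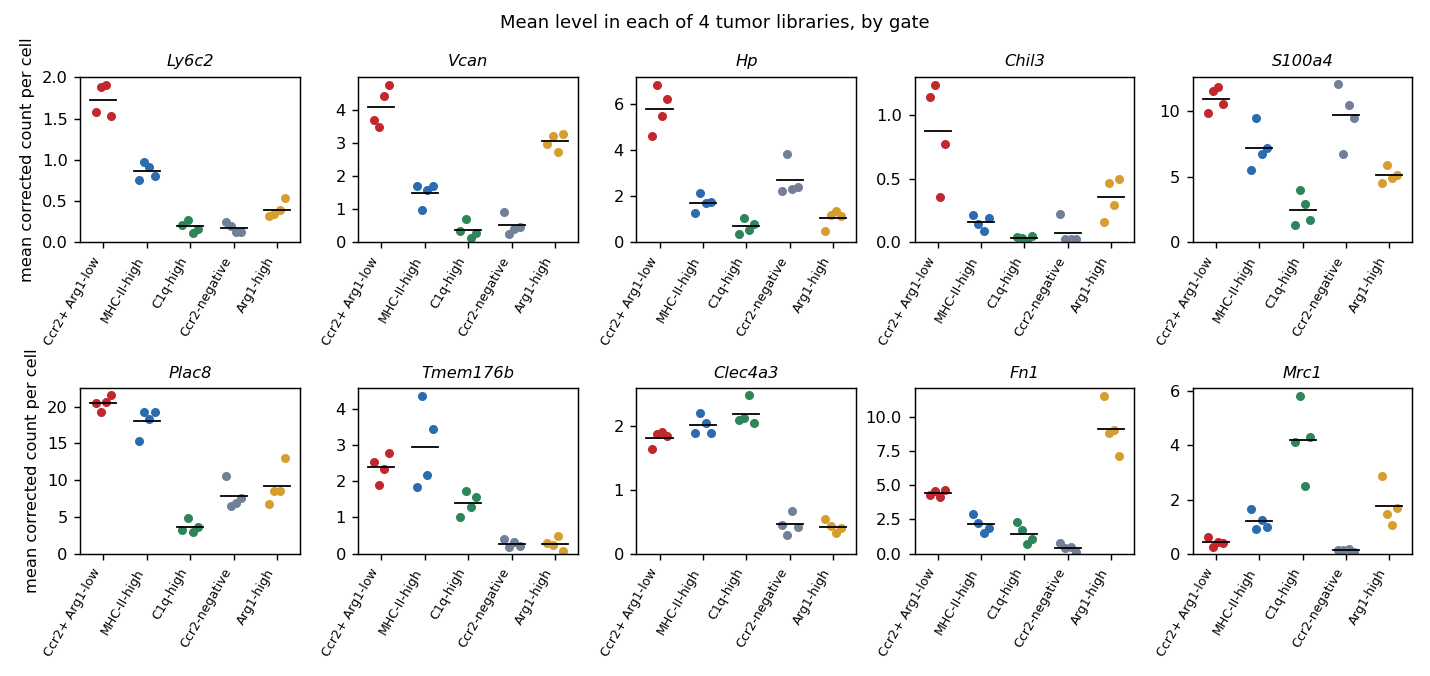
Mean corrected count per cell (vertical axes, linear from 0) of 10 genes in 5 gates, with 1 point per tumor library in the order 2 to 5 and a line at the mean of the 4 points. Ly6c2, Vcan and Hp are highest in the Ccr2+ Arg1-low cells in all 4 libraries, Clec4a3 is higher in MHC-II-high cells in every library, Tmem176b in libraries 3 and 5, and Fn1 is highest in Arg1-high cells.

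Against all other Csf1r+ S100a8/9-low cells, the genes of classical monocytes were higher almost without exception. Ly6c2, which encodes the Ly6C surface protein (chromosome 15, 75108158 to 75111970), was at 1.58, 1.89, 1.91 and 1.53 in libraries 2 to 5, against 0.461, 0.592, 0.587 and 0.558. Every library of the Ccr2+ Arg1-low cells lay above every library of the others, and the log2 difference was 1.49 ± 0.08 (adjusted p = 5.23e-07). Vcan, a large matrix proteoglycan made by monocytes (chromosome 13, 89655312 to 89742509), was at 3.69, 3.47, 4.41 and 4.75 against 1.33, 1.13, 1.29 and 1.34, a log2 difference of 1.60 ± 0.08 (adjusted p = 4.63e-07). Haptoglobin (Hp), which binds free hemoglobin, was at 4.60, 6.85, 5.48 and 6.24 against 0.993, 2.29, 1.59 and 1.62.

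Chil3, a chitinase-like secreted protein of marrow-derived monocytes, varied between libraries, with 1.15, 1.24, 0.357 and 0.773 against 0.0900 to 0.159, and libraries 2 and 3 had the higher values. Its log2 difference was 1.92 ± 0.16 (adjusted p = 1.09e-05). Mgst1, a membrane-bound glutathione transferase, was at 1.86 to 2.58 against 0.311 to 0.654 (log2 difference 2.03 ± 0.09, adjusted p = 1.26e-07).

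Over the classical monocyte list, 21 of 23 tested genes outside the gate were higher by limma with an adjusted p of at most 0.05 and 0 were lower, with 0 lower also in each of the 13 alternative fits. Over all 6573 genes tested in this comparison, 22.5% were higher (1476) and 12.6% lower (825). Without genes that had a mean under 0.1 in 1 group, 20 of 22 genes of the list were higher and 0 lower, and over all 6229 genes with a mean of at least 0.1 in both groups 22.4% were higher and 11.2% lower. The list's median log2 difference was 0.85, and that of all genes 0.07. The 2 genes that did not pass were Clec4a3 and its relative Clec4a1. The list holds the given markers S100a4 and Clec4a3, and it was chosen, as were the other lists, with earlier results of these data known. Its counts, here and in the comparisons below, thus describe the cells and are not independent evidence of what they are. The count of higher genes over the whole table depended on the libraries, with 869 without library 4 and 901 without library 5. The patrolling monocyte list had 3 of 12 higher and 2 lower, close to the shares over all genes, and a median of 0.18. The integrin gene Itgal was higher (0.58 ± 0.08, adjusted p = 0.000455), Cd9, a tetraspanin, was lower (-0.54 ± 0.12, adjusted p = 0.00628, and 0.0785 with no filter on low genes), and Cx3cr1, the fractalkine receptor gene, which did not pass, was at 0.358 to 0.582 against 0.430 to 0.713.

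Among the 12 largest positive differences, Prtn3, a serine protease of the primary granules of promyelocytes and of young monocytes (chromosome 10, 79874476 to 79883174), had the largest, a log2 difference of 2.16 ± 0.13 (adjusted p = 1.04e-06), at 0.531, 1.44, 1.16 and 0.911 against 0.0999, 0.184, 0.123 and 0.141. It was lowest in library 2 but above all other groups in every library. Hopx, an atypical homeodomain protein, was at 1.26 to 2.27 against 0.337 to 0.415. Ly6c1, next to Ly6c2 and so similar that reads may be shared between them, was at 1.51 to 2.10 against 0.452 to 0.595. Smpdl3a, an acid sphingomyelinase-like phosphodiesterase, was at 2.93 to 3.99 against 0.845 to 1.23, and the interferon-inducible membrane protein gene Ifitm6 at 2.66 to 3.48 against 0.957 to 1.30. The last were Tppp3, which binds tubulin, and Pdlim1, an actin-associated adapter, with log2 differences of 1.39 ± 0.10 and 1.35. Of the 130 named differences over the 4 comparisons, 27 were of genes with a mean under 0.1 in 1 of the groups, Pdlim1, Ctsk, Mt3, Cd72 and Ccl8 among them. Such genes passed the filter of 0.1 through the other group alone, so their differences are given as a description.

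The 12 largest negative differences were led by Ctsk. Cathepsin K (Ctsk), the collagen-degrading protease of osteoclasts, was at 0.0291, 0.00348, 0.00923 and 0.00988 against 3.54, 3.33, 4.07 and 2.84. Acp5, the tartrate-resistant acid phosphatase, was at 0.272 to 0.634 against 3.53 to 5.43, and Mmp9, a gelatinase, at 0.116 to 0.276 against 1.68 to 3.02. These came largely from few cells: 65 of the 2244 other cells had 5 or more Ctsk counts, 54 of them among the Ccr2-negative cells, and 0 of the Ccr2+ Arg1-low cells did. With those cells left out, Acp5 differed by -1.66 and Mmp9 by -1.86 on the log2 scale, from -3.22 and -3.24 with them, both still called, and Ctsk had no value, its mean being under the filter of 0.1.

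Cd74, the invariant chain of MHC class II, was at 4.53 to 6.36 against 51.4 to 68.7, and H2-DMb1, which loads peptides onto MHC class II, at 0.111 to 0.157 against 1.87 to 2.25. Both are co-regulated with the MHC class II genes that set the gate, so a difference follows from the choice of cells. Ccl8, a monocyte-attracting chemokine, was at 0.0174 to 0.171 against 1.10 to 1.54, Pf4 (CXCL4) at 0.446 to 0.720 against 2.68 to 8.50, and Mmp12, the macrophage elastase, at 0.112 to 0.606 against 2.01 to 3.93. Cd63, Cd72, Ms4a7 and Mt3 had log2 differences between -2.62 and -2.50.

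**Figure D3:**
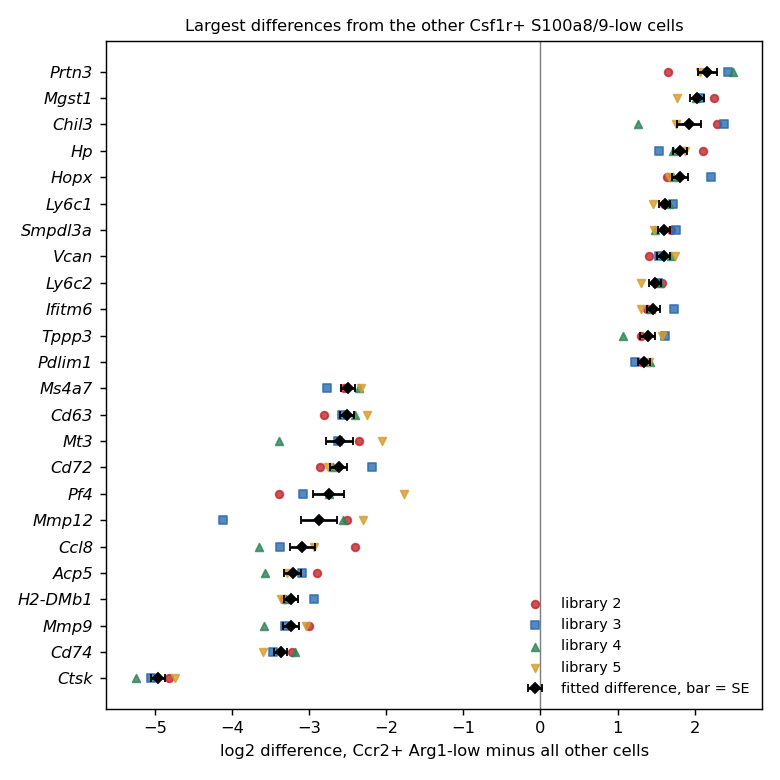
The 12 largest positive and 12 largest negative log2 differences among called genes outside the gate, Ccr2+ Arg1-low minus all other Csf1r+ S100a8/9-low cells (horizontal axis), with the fitted difference (diamond, bar = SE) and 1 symbol per library. Every library lies on the same side of 0 for each of the 24 genes, Ctsk has the largest negative difference (-4.96), and Mmp12 in library 3 lies apart from the other libraries.

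In the adhesion and migration list 18 of 27 genes were higher and 3 lower (median 0.50). Lsp1, a leukocyte F-actin binding protein, was at 3.71 to 4.66 against 1.77 to 2.34 (log2 difference 0.91 ± 0.08, adjusted p = 1.29e-05), with no overlap. The 3 lower genes were Itgax (CD11c), the platelet-endothelial adhesion molecule gene Pecam1 and Itgb1, with Itgax at 0.0976 to 0.293 against 0.534 to 0.880. All 6 tested members of the list of other S100 genes were higher than in all other cells (median 0.65), among them S100a6 at 28.1 to 31.7 against 16.9 to 19.6 and S100a10, the partner of annexin A2, at 10.6 to 12.3 against 5.80 to 7.59.

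Among 37 myeloid transcription factors 15 were higher and 7 lower, with a median of 0.15, and 8 were higher without library 4 and also without the replicate block. Without Cebpe, Rxra and Nr1h3, which passed the filter through 1 group alone, 13 of 34 were higher and 6 lower, so the values of those genes are a description. Cebpe, a factor of granulocyte and monocyte maturation, was at 0.143 to 0.216 against 0.0536 to 0.0626, and Klf13 at 2.67 to 2.90 against 1.55 to 1.84. Nr1h3 (LXR alpha), a sterol-sensing receptor of macrophages, was at 0.0420 to 0.0600 against 0.136 to 0.252. Klf2, which restrains myeloid activation, differed by -0.62 ± 0.07 (adjusted p = 0.000162), which no longer passed without the replicate block (adjusted p = 0.0831) or without cells carrying markers of other types (-0.16, adjusted p = 0.266). The lysozyme gene Lyz2, abundant in all myeloid cells, was at 72.3, 81.3, 73.3 and 79.3 against 35.9, 40.1, 33.5 and 37.7 (log2 difference 1.06 ± 0.07).

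In the tissue macrophage list 19 of 24 genes were lower and 1 higher (median -0.76). Summed over its 25 genes, the Ccr2+ Arg1-low cells had 76.2, 62.43, 60 and 67.29 in libraries 2 to 5. The MHC-II-high cells, against which no test was run, had 92.15, 70.4, 74.39 and 77.99. The Ccr2-negative cells had 58.46 to 68.41, the Arg1-high cells 146.7 to 209.5 and the C1q-high cells 147 to 167.9. The mannose receptor gene Mrc1 (CD206) was at 0.631, 0.244, 0.418 and 0.375 against 2.43, 1.35, 1.22 and 1.51 in all other cells, with no overlap (log2 difference -1.75 ± 0.11, adjusted p = 1.65e-06). In the lysosome list 14 of 28 were lower and 2 higher, and in the chemokine list 12 of 18 lower and 1, Ccl9, higher. In the antigen presentation list 8 of 11 were lower and 0 higher, a count tied to the MHC class II limit of the gate. Against the Arg1-high and the Ccr2-negative cells, which had the same limit, that list had 4 of 9 higher and 1 lower, and 5 of 9 higher and 1 lower. Over all genes 24.1% were higher and 10.9% lower than in the Arg1-high cells, and 31.7% and 10.7% than in the Ccr2-negative cells. Cxcl16, a transmembrane chemokine, was at 0.317 to 0.715 against 1.82 to 3.21, and Ccl12, another CCR2 ligand, at 0.0662 to 0.464 against 0.659 to 1.86. Summed over the 21 listed chemokines, the Ccr2+ Arg1-low cells had 114.1, 81.82, 104.2 and 92.2 in libraries 2 to 5. The MHC-II-high cells had 123, 71.38, 108.3 and 109.2, and the Arg1-high cells 238.1 to 296.3. The chemokine receptor list also holds receptors for other attractants, such as complement C3a, formyl peptides and leukotriene B4. Of its genes outside the gate 7 of 15 were lower and 1, the leukotriene receptor gene Ltb4r1, higher. The lower ones were Ccr7, Ccrl2, Cxcr2, Cxcr4, C3ar1, Fpr1 and Fpr2. Without Ccr7 and Fpr1, which had a mean under 0.1 in the Ccr2+ Arg1-low cells and passed the filter through the others alone, 5 of 13 were lower. Ccr7, which guides cells to lymph nodes, was at 0.0146 to 0.0677 against 0.0952 to 0.43, and the neutrophil receptor Cxcr2 at 0.0746 to 0.220 against 0.234 to 0.854. Over genes with a mean of at least 0.1 in both groups, 15 of 20 tissue macrophage genes, 12 of 26 lysosome genes and 11 of 17 chemokines were lower.

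**Figure D4:**
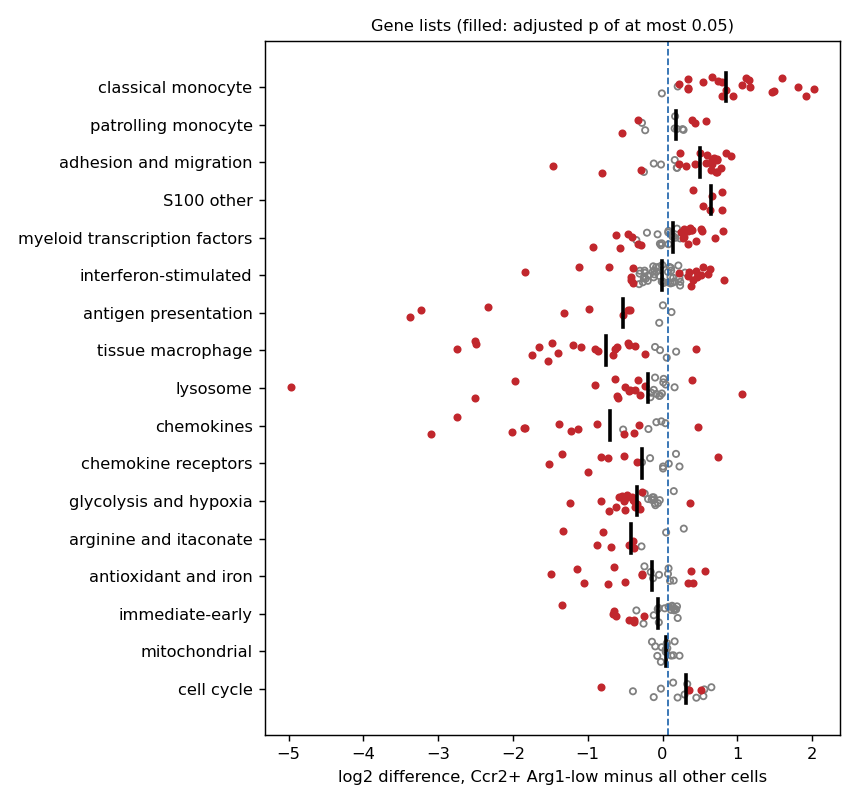
Log2 difference of each tested gene, Ccr2+ Arg1-low minus all other cells (horizontal axis), in 17 gene lists, filled where limma's adjusted p was at most 0.05, with a black bar at the list's median and a dashed line at the median of all tested genes (0.07). The filled classical monocyte points all lie right of 0, the 2 open ones are Clec4a1 and Clec4a3, and the tissue macrophage list has its median at -0.76.

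Genes of glycolysis and hypoxia were lower in 19 of 31 cases and higher in 1, Hif1a (median -0.35), and lower in 18 of 30 without Adm, which passed the filter through the other cells alone. Mif, a cytokine gene induced in hypoxia, was at 3.77, 3.83, 3.13 and 3.68 against 9.27, 8.87, 8.30 and 8.11, with no overlap (log2 difference -1.24 ± 0.08, adjusted p = 1.65e-06). Pdk1, a kinase that limits pyruvate oxidation, was at 0.0914 to 0.142 against 0.210 to 0.303. Summed over the 34 genes of the list, the Ccr2+ Arg1-low cells had 126.4, 118.2, 100.1 and 117.8 counts per cell in libraries 2 to 5. The MHC-II-high cells, against which no test was run, had 134, 112.3, 124.6 and 125.4, and the Arg1-high cells 226.7 to 249.3. In the list on arginine and itaconate, 7 of 10 were lower and 0 higher, and 5 of 8 without Srm and Slc7a1, which passed the filter through the other cells alone. Acod1, which makes itaconate, was at 1.74, 0.993, 2.03 and 1.96 against 2.69, 4.92, 5.16 and 4.63, a log2 difference of -1.32 that went to -0.71 and lost its call without cells carrying markers of other types (adjusted p = 0.1). The argininosuccinate synthase gene Ass1 was at 0.311 to 0.492 against 0.571 to 1.005. Arg1 itself is in the gate.

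Of interferon-stimulated genes 12 of 58 were higher and 7 lower, with a median of -0.00. These shares are near the 22.5% and 12.6% over all genes, so the count is no result about the list. Ifi209, one of the higher genes, was at 0.760 to 1.011 against 0.405 to 0.495 (log2 difference 0.83 ± 0.08, adjusted p = 5.17e-05). The lower ones included Cxcl9, a chemokine induced by interferon gamma, at 0.425 to 0.781 against 1.32 to 2.88, Iigp1, a GTPase, at 0.0209 to 0.123 against 0.105 to 0.412, and Bst2 (tetherin) at 0.683 to 0.918 against 1.13 to 1.49. Iigp1 had a mean under 0.1 in the Ccr2+ Arg1-low cells and passed the filter through the other cells alone. Without it 6 of 57 were lower. Without library 2, 11 were higher and 17 lower, and without the replicate block 9 and 4. Immediate-early genes were lower in 8 of 24 cases and higher in 0, and lower in 7 of 23 without Egr3, which passed the filter through the other cells alone. Egr1 was at 0.936, 1.40, 1.45 and 1.26 against 2.66, 3.90, 3.62 and 3.19, a log2 difference of -1.34 ± 0.07 (adjusted p = 7.50e-07).

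The list of inflammatory and tumor-supporting secreted factors had 7 of 21 higher and 7 lower, and without library 2 it had 7 higher and 12 lower. Thbs1 (thrombospondin 1), an inhibitor of angiogenesis, was at 10.1, 6.52, 9.15 and 8.64 against 3.36, 3.46, 3.98 and 4.07. Spp1 (osteopontin) was at 1.87, 2.84, 1.45 and 0.820 against 4.57, 7.52, 3.44 and 1.69, and Csf1, which encodes M-CSF, at 0.158 to 0.390 against 0.375 to 1.16. The Spp1 ranges overlapped between libraries, but within each library the Ccr2+ Arg1-low cells were the lower ones (log2 difference -1.19 ± 0.08). The antioxidant and iron list had 4 of 20 higher and 8 lower, and 4 of 18 higher and 6 lower without the iron exporter gene Slc40a1 and the transferrin receptor gene Tfrc, whose means were under 0.1 in the Ccr2+ Arg1-low cells (log2 differences -1.15 and -1.05, given as a description). The share of the antioxidant and iron list that was higher is near the 22.5% over all genes. The list of inflammatory and tumor-supporting factors had 7 of 19 higher and 5 lower without genes that had a mean under 0.1 in 1 group. In the list of Fc and complement receptors and related genes, 2 of 18, Tyrobp and Trem3, were higher and 7 lower. Of checkpoint and inhibitory receptors 1 of 16 was higher and 7 lower, but 4 lower without library 4 and 3 without library 5. Without cells carrying markers of other types, 3 of these were higher and 3 lower.

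Against the 272 Arg1-high cells, which differed from the Ccr2+ Arg1-low cells in the gate by Arg1 and, for some, by Ccr2, genes of glycolysis and hypoxia were lower in 30 of 31 cases and higher in 0 (median -0.92, all genes 0.15). Over all 6479 genes tested, 24.1% were higher in the Ccr2+ Arg1-low cells (1562) and 10.9% lower (706). Mif was at 9.93 to 12.9 in the Arg1-high cells (log2 difference -1.60 ± 0.13, adjusted p = 4.16e-05), and Adm (adrenomedullin), a hypoxia-induced peptide, at 0.355 to 0.718, against 0.0185 to 0.132, with a mean under the filter of 0.1 in the latter. Mitochondrially encoded genes were higher in 11 of 13 cases (median 0.78), and these genes took 1.89% to 2.76% of the counts in the Arg1-high cells.

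The largest negative difference from the Arg1-high cells was that of Pf4. It was at 0.720, 0.446, 0.541 and 0.711 against 34.9, 16.5, 17.2 and 8.80, a log2 difference of -4.64 ± 0.26 (adjusted p = 7.31e-06). Mmp12 differed by -4.05 ± 0.17, Mmp9 by -2.99 ± 0.22, Mmp13, a collagenase, by -2.90 ± 0.28 and the metallothionein gene Mt2 by -3.26 ± 0.26. Spp1 was at 6.23 to 29.4 in the Arg1-high cells and differed by -3.20 ± 0.16 (adjusted p = 2.81e-06). The platelet markers Itga2b and Ppbp, read together, were at 0.0667 to 1.20 in the Arg1-high cells and 0.00923 to 0.0568 in the Ccr2+ Arg1-low cells. Pf4 is also a platelet gene, and the part of platelets in its difference was not tested.

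Classical monocyte genes were higher against the Arg1-high cells in 17 of 23 cases and lower in 3. The 3 were Fn1 (fibronectin) at 4.15 to 4.63 against 7.13 to 11.5, the coagulation factor gene F13a1 at 3.47 to 4.17 against 5.18 to 6.18, and Thbs1 at 6.52 to 10.1 against 10.6 to 14.4. Vcan differed less than against the other groups, 3.47 to 4.75 against 2.73 to 3.27 (log2 difference 0.40 ± 0.14, adjusted p = 0.0481). Hp differed by 2.43 ± 0.17, Ifitm6 by 1.95 ± 0.19, Tmem176a, the neighbour of Tmem176b, by 2.33 ± 0.24, and the uncharacterized Gm15987 by 2.26. The adhesion and migration list had 10 of 27 higher and 4 lower, and of the other S100 genes 4 of 6 were higher, with S100a6 (0.14 ± 0.13, adjusted p = 0.437) and S100a10 (0.18 ± 0.13, adjusted p = 0.298) not passing. Without library 2, 3 or 4, 2 of the S100 genes were higher, and without cells carrying markers of other types 1 was. Of interferon-stimulated genes 31 of 57 were higher and 0 lower, and without library 2, 18 of 55 and 1, with 18 of 56 and 0 without cells carrying markers of other types. Without genes under a mean of 0.1 in 1 group, 27 of 52 were higher, as were 16 of 22 classical monocyte genes, and 29 of 30 genes of glycolysis and hypoxia were lower. The largest called difference among the interferon-stimulated genes was that of Cxcl10, a T-cell attracting chemokine, at 3.08, 0.568, 3.26 and 3.42 against 0.321, 0.102, 1.26 and 0.533. Library 3 was low in both groups, so the Cxcl10 ranges overlapped although the difference within each library had the same sign (2.11 ± 0.23, adjusted p = 0.000204). Summed over 61 interferon-stimulated genes, the Ccr2+ Arg1-low cells had 109.1, 74.06, 99.26 and 92.25 in libraries 2 to 5. The MHC-II-high cells, against which no test was run, had 105.2, 81.54, 107.4 and 103.8, and the Arg1-high cells 52.47 to 74.61. With cells carrying markers of other types left out, 151 Arg1-high cells remained, and the calls over all genes fell to 622 higher and 335 lower.

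Against the 353 Ccr2-negative cells, the classical monocyte list was higher in 19 of 23 cases and lower in 0 (median 1.81, all genes 0.22). Over all 6430 genes tested, 31.7% were higher (2041) and 10.7% lower (691). Genes of glycolysis and hypoxia were lower in 22 of 31 cases and higher in 1, Hif1a (median -0.62). Without Adm, which passed the filter through the Ccr2-negative cells alone, 21 of 30 were lower. Fn1 was at 4.30, 4.58, 4.15 and 4.63 against 0.784, 0.408, 0.494 and 0.1, a log2 difference of 3.23 ± 0.27 (adjusted p = 2.52e-06). Ly6c1, Vcan, Ly6c2, Tmem176b and Ms4a4c, a membrane protein of monocytes, followed with 3.03 ± 0.18, 2.88 ± 0.21, 2.76 ± 0.17, 2.75 ± 0.17 and 2.66 ± 0.17.

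The Ccr2-negative cells carried markers of osteoclasts and of neutrophils, and whether the 2 kinds of marker lay in separate cells was not tested. Ctsk was at 23.5, 11.6, 19.3 and 17.3 in the Ccr2-negative cells against 0.00348 to 0.0291, a log2 difference of -7.28. Acp5, Mmp9, Mt3 and Atp6v0d2, a proton pump subunit of osteoclasts, differed by -5.08, -5.07, -4.85 and -3.96. The summed level of 13 neutrophil markers was 37.5 to 68.4 in them and 5.05 to 8.97 in the Ccr2+ Arg1-low cells, and BC100530, a stefin-like protease inhibitor gene expressed in neutrophils, was at 5.47 to 25.1 against 0.382 to 1.25. Its log2 difference of -3.73 went to -1.20 and lost its call without cells carrying markers of other types (adjusted p = 0.085). Without the 54 cells with 5 or more Ctsk counts Acp5 differed by -1.43 and Mmp9 by -2.53, and the classical monocyte list was higher in 20 cases and lower in 0. With cells carrying markers of other types left out, 159 Ccr2-negative cells remained. The classical monocyte list was then higher in 21 cases and lower in 1, interferon-stimulated genes moved from 17 higher and 10 lower to 24 and 0, and immediate-early genes from 4 and 10 to 6 and 1. The calls higher over all genes fell to 1174 in that setting and to 1320 without library 5. Without library 5, 5 interferon-stimulated genes were lower, and 2 immediate-early genes were higher and 6 lower, with 2 higher also without library 4. The tissue macrophage list had 7 of 22 higher and 6 lower against the Ccr2-negative cells, with 4 higher without cells carrying markers of other types, and the lysosome list 9 of 28 higher and 6 lower. The shares that were higher in both lists, and in the interferon-stimulated list, are near the 31.7% over all genes. Without genes under a mean of 0.1 in 1 group, 4 were lower in each of the tissue macrophage and lysosome lists, and 17 of 21 classical monocyte genes were higher.

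Against the 514 C1q-high cells, the classical monocyte list was higher in 21 of 23 cases (median 1.67, all genes 0.06) and lower in 1, Clec4a1. Over all 6744 genes tested, 25.4% were higher (1713) and 18.1% lower (1223). Dmkn (dermokine) had the largest positive difference, at 3.24, 1.44, 2.34 and 2.64 against 0.203, 0.0909, 0.0921 and 0.0941 (3.49 ± 0.15, adjusted p = 1.13e-07). Vcan, the protease inhibitor gene Slpi, Thbs1, Hopx and Prtn3 followed with 3.34 ± 0.28, 3.31 ± 0.45, 3.15 ± 0.30, 3.06 ± 0.12 and 3.02. Slpi was at 7.09 in the 33 C1q-high cells of library 3 and at 0.461 to 1.12 in those of the other libraries, against 11.3 to 17.3.

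Lower than in the C1q-high cells were Ccl8 (-5.35), Ms4a7 (-4.36 ± 0.21), Cd72, an inhibitory lectin receptor (-4.31), Cd63, a lysosomal tetraspanin (-3.63 ± 0.12), Pf4 (-3.57 ± 0.12) and Slamf9 (-3.57). The tissue macrophage list was lower in 21 of 24 cases. Of glycolysis and hypoxia genes 10 of 31 were higher and 8 lower, but 9 and 2 without library 4. Immediate-early genes were higher in 14 of 24 cases and lower in 1, Egr1 (-0.82 ± 0.12), and interferon-stimulated genes higher in 29 of 58 and lower in 6, with 18 higher without library 2 and 14 without cells carrying markers of other types. Cell cycle genes were lower in 15 of 23 cases and higher in 1, Cenpa, with 9 lower without library 2 and 4 without cells carrying markers of other types. Without genes under a mean of 0.1 in 1 group, 8 of 15 cell cycle genes and 17 of 20 tissue macrophage genes were lower, and 19 of 21 classical monocyte genes were higher. With cells carrying markers of other types left out, 174 C1q-high cells remained and the calls over all genes fell to 986 higher and 700 lower. Without library 2, which held 320 of the 514 cells, 1139 were higher.

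**Figure D5:**
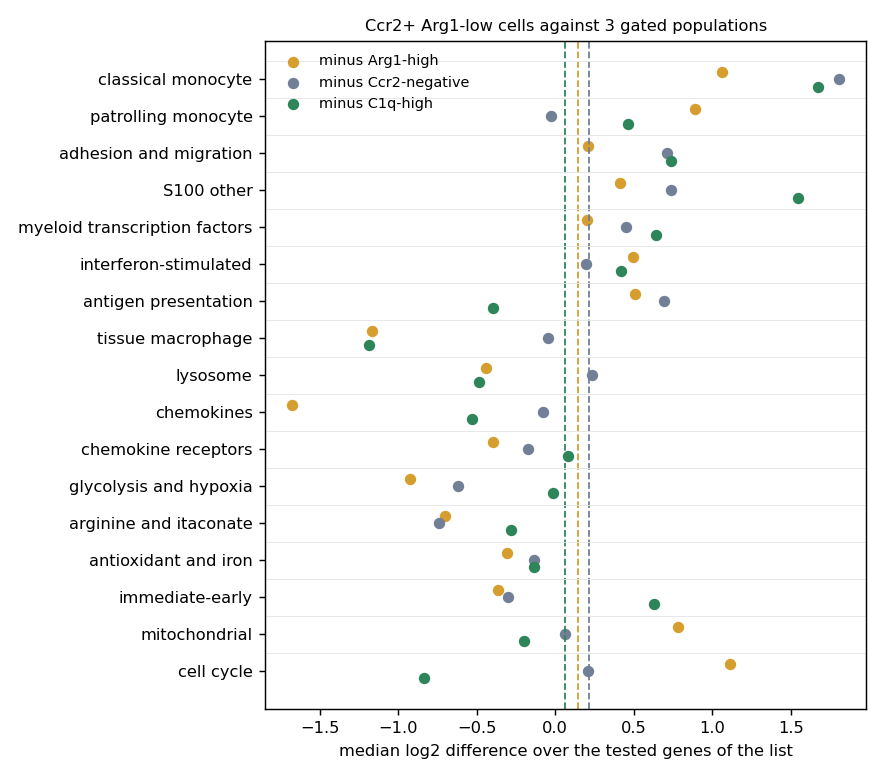
Median log2 difference over the tested genes of 17 gene lists (horizontal axis), Ccr2+ Arg1-low cells minus Arg1-high, Ccr2-negative or C1q-high cells, with a dashed line in the same color at the median of all tested genes of that comparison. The classical monocyte list lies right of 1 in each. The glycolysis and hypoxia list lies at -0.92 against Arg1-high cells, -0.62 against Ccr2-negative cells and -0.02 against C1q-high cells. The 3 comparisons share the Ccr2+ Arg1-low cells.

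Within the Ccr2+ Arg1-low cells, levels of the monocyte genes were higher where Ccr2 was higher, which is a description, since Ccr2 chose the cells and cells with more Ccr2 also had more detected genes (a median of 2492 at 1 Ccr2 count and 2773 at 10 or more). Ly6c2 averaged 0.830 in the 153 cells with 1 Ccr2 count, 1.23 in the 443 cells with 2 to 4, 1.80 in the 546 cells with 5 to 9 and 2.35 in the 425 cells with 10 or more. Vcan went from 2.80 to 5.37, Hp from 3.09 to 8.05, Clec4a3 from 0.837 to 2.69 and Prtn3 from 0.216 to 1.41 between the lowest and the highest of these classes. Plac8, a protein of early myeloid and lymphoid cells that was chosen after its values were seen, was 21.2 in the lowest class and 18.4 in the highest. In each of the 4 libraries the highest class had more Ly6c2, Vcan, Hp, Clec4a3 and Prtn3 than the lowest.

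Most Ccr2+ Arg1-low cells carried several genes of the classical monocyte list at once. At least 3 of Ly6c2, Vcan, Hp and Plac8 were counted in 76.0%, 82.2%, 84.0% and 78.5% of them in libraries 2 to 5, and in 22.5% to 28.9% of the other Csf1r+ cells. None of the 4 was counted in 0.247% to 1.09% of the Ccr2+ Arg1-low cells and in 9.52% to 22.5% of the others. Vcan alone had a count in 75.8% to 81.2% of the Ccr2+ Arg1-low cells, 33.1% to 35.7% of the others and 5.45% to 6.85% of the S100a8/9-high cells, which stand for the background in neutrophil-like cells. Those had a median of 1362.5 to 1427 detected genes. After each cell was thinned to 3000 corrected counts the 3 ranges were 54.0% to 65.2%, 17.7% to 23.7% and 2.41% to 4.24%, with 0 of the Ccr2+ Arg1-low cells too shallow. Corrected totals were already nearly even, so this thinning cannot remove differences in raw depth or RNA content. Ly6c2 had a count in 53.8% to 62.8% of the Ccr2+ Arg1-low cells (31.1% to 39.7% thinned) and in 6.49% to 9.49% of the S100a8/9-high cells (3.15% to 5.14% thinned). Hp and Plac8 were also frequent in the S100a8/9-high cells, for which the share with at least 3 of the 4 genes was not counted. Hp had a count in 77.1% to 90.9% of the Ccr2+ Arg1-low cells (60.55% to 80.49% thinned) and in 71.6% to 83.7% of the S100a8/9-high cells (60.45% to 71.44% thinned), so its share did not stand apart from that background. Plac8 had one in 97.6% to 98.5% (95.1% to 96.9% thinned) against 78.0% to 88.9% (56.8% to 65.8% thinned). Mrc1 had one in 10.1% to 13.8% of the Ccr2+ Arg1-low cells (5.58% to 8% thinned), against 4.59% to 9.10% of the S100a8/9-high cells (2.34% to 5.50% thinned) and 27.2% to 46.3% of the other Csf1r+ cells.

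Mki67, a proliferation marker, had a count in 5.27% of the Ccr2+ Arg1-low cells of library 2 (95% exact interval 3.56% to 7.49%), 18.1% of library 3 (13.8% to 23.1%), 12.6% of library 4 (9.21% to 16.7%) and 11.9% of library 5 (8.87% to 15.4%). The intervals cover counting error over the cells of 1 library, and whether the libraries differ was not tested. Cells thinned to 3000 counts gave 2.91%, 11.2%, 6.46% and 8.15%. The S100a8/9-high cells had 2.97% to 4.42%. In the other Csf1r+ cells the order was different, with 13.3% in library 2 and 8.22% to 9.86% in the rest. The summed level of 24 cell cycle genes was 6.62, 16.5, 10.4 and 9.91 in the Ccr2+ Arg1-low cells. Against all other cells 2 of 14 tested members of the list, Cenpa and Hmgb2, were higher and 1, Tubb5, lower, with a median of 0.31. Hmgb2 lost its call under 7 of 13 alternatives. These shares are not above the 22.5% and 12.6% over all genes, so the count is no result about the list. Without library 2, 9 were higher, and without library 3 the median was -0.05. Library 3 also stood lowest in the summed level of 61 interferon-stimulated genes, 74.1 against 92.3 to 109 in the other libraries, and the other Csf1r+ cells were lowest there too, at 67.8.

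Markers of other cell types were low in the Ccr2+ Arg1-low cells, with the exception of the neutrophil and dendritic cell lists. The 13 neutrophil markers summed to 5.05, 8.97, 6.45 and 6.78 counts per cell in libraries 2 to 5, against 12.8, 28.4, 18.5 and 18.9 in the other Csf1r+ cells. Of 9 tested, 8 were lower and 1, Mmp8, higher. Il1r2, a decoy receptor for interleukin 1, was at 1.03 to 1.22 against 2.73 to 4.32, G0s2 at 1.36 to 2.17 against 3.13 to 9.13, and Stfa2l1 at 0.458 to 1.04 against 1.23 to 3.83. Ly6g, the defining neutrophil marker, had a count in 0% to 0.988% of the Ccr2+ Arg1-low cells and 18.2% to 25.1% of the S100a8/9-high cells. The B-cell list summed to 0.193 to 0.277, with Ighm, the IgM heavy chain, at 0.167 to 0.254 and Ms4a1, Pax5 and Ebf1 at 0 in all 4 libraries. Lists for T and NK cells, tumor epithelium, and fibroblasts and endothelium summed to at most 0.222, 0.101 and 0.267. The list of 15 dendritic cell markers, which holds Bst2, Itgax and other genes that monocytes and macrophages also express, summed to 2.25 to 2.60 against 3.97 to 4.49 in the other Csf1r+ cells, with Cd209a and Siglech at 0 in all 4 libraries. The part of the remaining markers in the differences was not tested, beyond the fits without such cells. Those kept 1124 and 1159 cells, and the classical monocyte list was higher in 19 cases and lower in 0.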

How the data were processed

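The 4 tumor libraries were 10x 3' v3.1 scRNA-seq of FACS-purified TAM. The authors ran Cell Ranger and SCTransform in Seurat and deposited, per cell and gene, natural log values of 1 plus the corrected count, after a minimum of 1000 detected genes (4 of the 10885 cells had fewer). Labels name mm10. Each of the 21074130 values above 0 lay within 0.00196 of a whole number after the log was undone (tolerance 0.01), and was rounded. Library totals are even after correction, so depth is largely removed. Values of the cultured cells, normalized in a table of their own, and ATAC-seq peaks were not used here.

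Cells were gated as described, and corrected counts averaged per library and gate. Each comparison was a limma 3.58.1 fit (R 4.3.3) on log2(mean + 0.1) with the library as a block, since both groups of cells came from the same library, over genes with a mean of at least 0.1. Benjamini-Hochberg adjusted p of at most 0.05 was a call, gate genes left out of every count. On the log2 scale with 0.1 added, changes of low genes are understated. Members and gene lists were chosen with earlier results of these data known. Named genes were the 12 largest called differences each way against all other cells, 6 against each other group, and up to 4 called members per list, same in sign in all 4 libraries for the first, and other genes named stand in counts of 5 or fewer or were chosen after their values were seen. Alternatives were a pseudocount of 1, no filter, cells scaled to 1 total, means of log values, no replicate block, Ccr2 of 2 or more, Arg1 of 0, cells with markers of other types left out (2 or more marker counts, or 30 or more of S100a8 and S100a9), each library left out and, added after seeing the data, cells with 5 or more Ctsk counts left out. Libraries could not be matched to sample replicate numbers. Gene positions are GENCODE vM21. Python 3.11.15 was used for the rest. Results for some genes are not reported here.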

Additional observations from a re-analysis of the deposited data

Results flagged for a closer look

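Among 96 sets of 4 library values (log2 differences of named genes against all other cells, and the share of these cells in the Csf1r+ S100a8/9-low cells and in the library), 3 had 1 library far from the others, and chance gives this in about 1 of 20 sets. Mmp12 differed by -4.12 in library 3, against -2.52, -2.56 and -2.30 in libraries 2, 4 and 5. Hopx differed by 2.21 in library 3, against 1.64, 1.72 and 1.67. H2-DMb1 differed by -2.94 in library 3, against -3.33, -3.30 and -3.37. In each case library 3, which held the fewest of these cells, had the same sign as the rest. The cause was not tested.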

How the results depend on the processing

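Of 1678 values that the 130 named gene differences took under the alternatives, 1649 kept their direction and side of the threshold, 28 kept the direction only and 1 reversed: Ighm against all other cells was -0.41, and 0.42 without cells carrying markers of other types, a setting in which Ighm is itself one of the markers that decide which cells are left out. By size, 117 of the 130 moved by over 1.5 times with a pseudocount of 1 or with means of log values and 23 under any other alternative, 17 of them without cells carrying markers of other types. Without the replicate block, 126 of the 130 kept their call, and of the lists' counts given above those of myeloid transcription factors and interferon-stimulated genes moved by over 1.5 times. Some named genes, Ctsk among them, were not tested once cells with 5 or more Ctsk counts were left out. With means of log values, 531 genes were lower than in all other cells and 403 lower than in Ccr2-negative cells, and 75.8% and 86.2% of calls were higher, against 64.1% and 74.7%. Without cells carrying markers of other types, 622 genes were higher and 335 lower than in Arg1-high cells, 1174 higher than in Ccr2-negative cells, and 986 higher and 700 lower than in C1q-high cells. The share of Csf1r+ S100a8/9-low cells was then 44.03%, 56.01%, 47.25% and 56.13% in libraries 2 to 5, with library 3 no longer the highest. With each library left out in turn, genes higher than in all other cells numbered 869 to 1414, than in Ccr2-negative cells 1320 to 1865 and than in C1q-high cells 1139 to 1989. The causes were not tested. The limits are 4 libraries, gates cut on the same cells, corrected in place of raw counts, and as few as 30 cells per library in Arg1-high cells and 33 in C1q-high cells.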
